A study of Mus musculus with 16 samples.

Results

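The sarcomeric myosin heavy chain genes Myh1, Myh2, Myh3, Myh4, Myh7, Myh7b and Myh8 were described in the tibialis anterior (TA), a predominantly fast hindlimb muscle that lifts the foot. They were taken by symbol from the deposited count matrix through the Ensembl identifier of each row, which gave 7 of 29730 genes, and all 7 passed the filter on low counts. The 16 samples came from male mice aged 7 weeks, strain label C57BL/6N, 4 in each of 4 groups. These were wild-type mice given saline (WT_PBS), wild-type mice given the oligonucleotide ASO1 (WT_ASO), Bin1mck-/- mice given saline (KO_PBS) and Bin1mck-/- mice given ASO1 (KO_ASO). ASO1 is an antisense oligonucleotide against Dnm2, which encodes the membrane-cutting GTPase dynamin 2. Bin1 encodes amphiphysin 2, a protein that bends membranes at the muscle triad. The sources used here do not say how Bin1 was deleted, which part of it, or at what dose and schedule ASO1 was given.

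A myosin heavy chain is the motor of the thick filament, and its isoform sets how fast a fibre contracts. Adult fast fibres of mouse limb muscle use the IIA chain (Myh2), the IIX chain (Myh1) or the IIB chain (Myh4), and slow fibres use the beta chain (Myh7). Myh3 and Myh8 encode the embryonic and the perinatal chain, which precede the adult chains in development and return in regenerating fibres. Myh7b, the slow-tonic chain, belongs to an older branch of the family known from extraocular muscle and muscle spindles. Myh3, Myh2, Myh1, Myh4 and Myh8 lie in this order on the plus strand of 1 cluster on chromosome 11.

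In GRCm38 the cluster ran from 67078300 to 67308634 on chromosome 11, a stretch of 230.3 kb. Myh3 (ENSMUSG00000020908) occupied 67078300 to 67102291 and Myh2 (ENSMUSG00000033196) 67171027 to 67197517. Myh1 (ENSMUSG00000056328) occupied 67200052 to 67224575, Myh4 (ENSMUSG00000057003) 67238029 to 67260446 and Myh8 (ENSMUSG00000055775) 67277124 to 67308634. Outside the cluster, Myh7 (ENSMUSG00000053093) lay on the minus strand of chromosome 14 from 54970684 to 54994626, and Myh7b (ENSMUSG00000074652) on the plus strand of chromosome 2 from 155611212 to 155634307. All 7 are annotated as protein coding.

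The 250 bases before the RefSeq start (build GRCm38.p6, plus strand of chromosome 11) are shown for the 3 adult fast genes, which took nearly all family counts, and for Myh8, the member that passed the test. They lie at chr11:67170777-67171026 for Myh2, chr11:67199852-67200101 for Myh1, chr11:67237562-67237811 for Myh4 and chr11:67276874-67277123 for Myh8. Capitals mark a run of 20 bases that Myh2, Myh1 and Myh4 hold letter for letter. Myh8 holds a similar but not identical stretch, aatacttctaattatatccg, which is not marked.
Myh2: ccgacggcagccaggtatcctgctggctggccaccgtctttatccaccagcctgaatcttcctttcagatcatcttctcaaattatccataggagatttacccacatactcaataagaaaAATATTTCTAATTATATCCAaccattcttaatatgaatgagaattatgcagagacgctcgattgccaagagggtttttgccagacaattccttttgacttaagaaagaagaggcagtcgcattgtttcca
Myh1: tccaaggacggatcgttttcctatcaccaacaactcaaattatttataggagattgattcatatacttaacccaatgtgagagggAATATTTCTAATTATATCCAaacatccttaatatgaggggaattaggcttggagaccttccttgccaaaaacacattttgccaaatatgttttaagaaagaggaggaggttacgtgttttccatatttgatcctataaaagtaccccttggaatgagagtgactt
Myh4: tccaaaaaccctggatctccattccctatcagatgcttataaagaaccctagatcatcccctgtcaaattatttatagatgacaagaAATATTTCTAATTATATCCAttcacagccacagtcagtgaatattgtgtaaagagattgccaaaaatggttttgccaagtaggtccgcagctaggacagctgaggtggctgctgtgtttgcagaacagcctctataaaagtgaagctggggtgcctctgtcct
Myh8: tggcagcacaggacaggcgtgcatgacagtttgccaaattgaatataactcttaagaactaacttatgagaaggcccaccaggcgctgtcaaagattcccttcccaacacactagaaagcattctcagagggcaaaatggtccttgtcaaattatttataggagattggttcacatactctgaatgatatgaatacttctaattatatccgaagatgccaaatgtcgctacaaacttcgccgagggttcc
The shared run began at position -130 from the start in Myh2, -165 in Myh1 and -163 in Myh4. It was picked as the longest run common to these 3 windows, so that they hold it was fixed in advance. Of 32851 RefSeq promoter windows of this length, 3 held it, the same 3 genes, a share of 0.00913%. A long run picked in this way is rare elsewhere in any case, so the share is no test of specificity. Searched on both strands, the TATA box letters TATAAA occurred 3 times in the window of Myh4, 2 times in Myh1, 1 time in Myh8 and Myh3, and 0 times in Myh2, Myh7 and Myh7b, beside 12.4% of all windows with at least 1. The core motif of MEF2, a transcription factor of muscle genes, was found in the windows of Myh1, Myh4 and Myh8 and in 1.69% of all windows. In each of these windows of Myh1, Myh4 and Myh8 the MEF2 match contains a TATAAA match counted above, so the counts overlap. E-box letters, CANNTG, occurred in 66.2% of all windows, 2 times in Myh4 and 0 times in Myh1 and Myh2.

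Total counts per sample ran from 27591900 to 40862854. Levels are CPM, counts relative to a common library size, with library sizes scaled by edgeR's trimmed mean of M values (TMM). Bin1 measured 494.7 CPM in WT_PBS, 539.0 in WT_ASO, 44.9 in KO_PBS and 35.5 in KO_ASO, with no overlap between genotypes, and Dnm2 measured 56.1 CPM in WT_PBS and 62.8 in KO_PBS against 25.6 in WT_ASO and 24.8 in KO_ASO. The muscle identity markers Acta1, Ckm, Des and others summed to between 61418 and 97294 CPM in every sample.

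Myh4 carried the highest level per kilobase of coding transcript in 15 of 16 samples, Myh1 followed, and Myh2 came after them in all 16. Myh4 averaged 5990 ± 1896 CPM per kb (SD, n = 16), Myh1 2453 ± 675 (SD, n = 16) and Myh2 328 ± 245 (SD, n = 16). The remaining 4 chains sat near 1 CPM per kb. Myh8 averaged 1.73 ± 0.734 (SD, n = 16), Myh3 1.15 ± 0.341 (SD, n = 16) and Myh7b 0.872 ± 0.364 CPM per kb (SD, n = 16). Myh7 averaged 1.90 ± 4.22 CPM per kb (SD, n = 16), a mean that rested on the sample KO_ASO replicate 1, and it exceeded Myh8 in only 3 of 16 samples. Among these neighbours the order was loose: Myh8 exceeded Myh3 in 13 of 16 samples and Myh3 exceeded Myh7b in 11 of 16. Dividing by the union of all exons, which is 11772 bases for Myh8 against 6149 for its longest coding transcript, turned the order of Myh8 (0.905 CPM per kb) and Myh3 (1.14 CPM per kb).

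The 3 adult fast chains together took 99.8% to 99.97% of family counts in a sample, and the 7 genes took 4.48% to 6.49% of all counts in a sample. Myh4 alone held 69.6% ± 8.82 of family counts in WT_PBS, 75.9% ± 7.93 in WT_ASO, 51.8% ± 18.2 in KO_PBS and 69.1% ± 2.97 in KO_ASO (SD, n = 4 each). Myh1 held 27.6% ± 7.39, 21.6% ± 6.01, 43.2% ± 15.5 and 25.1% ± 2.97 in the same order (SD, n = 4 each). Myh2 held 2.84% ± 2.20, 2.45% ± 2.05, 4.92% ± 3.02 and 5.66% ± 3.96 (SD, n = 4 each).

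**Figure D1:**
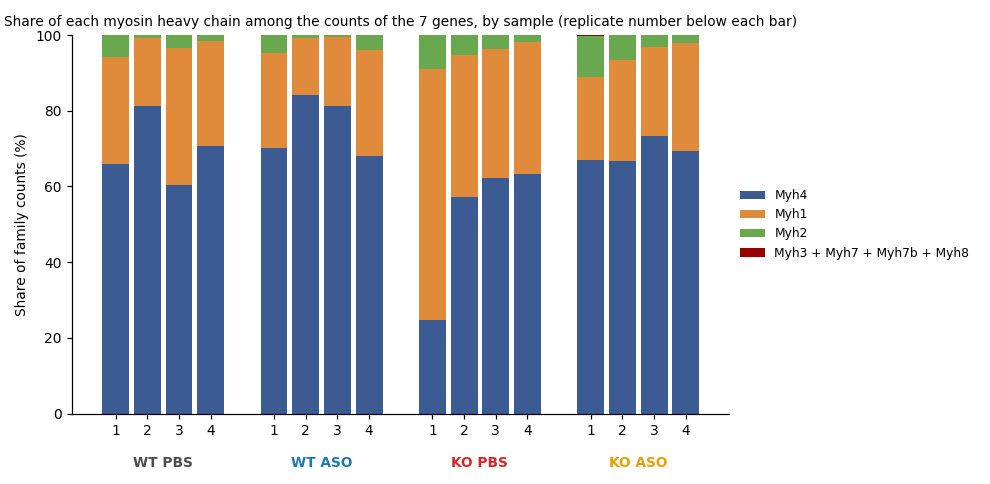
Stacked bars give, for each of the 16 samples, the percent of the counts of the 7 genes that came from Myh4, Myh1, Myh2 and the remaining 4 together, with replicate numbers below the bars. Myh1 exceeded Myh4 in 1 bar, KO_PBS replicate 1, where Myh4 held 24.8% and Myh1 66.2%.

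Seen by sample, the Myh4 share was 66.0%, 81.1%, 60.3% and 70.8% in WT_PBS and 70.2%, 84.1%, 81.3% and 68.1% in WT_ASO. It was 24.8%, 57.1%, 62.2% and 63.3% in KO_PBS and 67.1%, 66.8%, 73.2% and 69.4% in KO_ASO. KO_PBS overlapped WT_PBS, since 1 WT_PBS sample lay below 2 of the KO_PBS samples, whereas all KO_ASO samples lay above all KO_PBS samples. The Myh4 share differed by 17.3 percentage points between KO_ASO and KO_PBS (exact two-sided permutation test, p = 0.0286) and by -17.7 points between KO_PBS and WT_PBS (exact permutation test, p = 0.0857). The Myh1 share is nearly fixed by the Myh4 share, since these 2 genes held about all of the family apart from Myh2, so its values are not a separate result. It differed by -18.1 points between KO_ASO and KO_PBS (exact permutation test, p = 0.0286) and by 15.6 points between KO_PBS and WT_PBS (exact permutation test, p = 0.0857).

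Without KO_PBS replicate 1 these share differences shrank to 8.28 and -8.71 points for Myh4, and to -10.4 and 7.91 points for Myh1. The smallest p that 4 samples against 4 allow is 0.0286. It was reached in 6 of 35 tests of shares, and these p-values were not adjusted, nor are the tests of Myh1 and Myh4 independent of each other: Myh1, Myh4 and Myh8 between KO_ASO and KO_PBS, Myh8 between KO_PBS and WT_PBS, and Myh3 between KO_ASO and either wild-type group. The Myh3 differences were small, from 0.0110% of family counts in WT_PBS and 0.0111% in WT_ASO to 0.0147% in KO_ASO. The Myh3 level in CPM overlapped in both comparisons. The exact permutation test of this level gave p = 0.114 for KO_ASO against WT_PBS and p = 0.229 against WT_ASO. In bulk tissue, fewer fibres of a type and less transcript per fibre cannot be told apart.

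The first comparison asked how loss of Bin1 altered the family under saline. Between KO_PBS and WT_PBS, Myh8 was the only member called a differentially expressed gene (DEG) by edgeR's quasi-likelihood test at an adjusted P value under 0.05, and it was higher. Across all 14960 genes tested, 12.6% were called, 7.43% (1112 genes) higher and 5.12% (766) lower, or 1942 higher and 260 lower with library totals only, so that 1 of 7 is close to the background and the count says nothing particular about the family. Levels of KO_PBS and WT_PBS did not overlap for 1 member, again Myh8, beside 20.4% of all genes.

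Myh8, the perinatal chain, measured 6.99, 9.80, 7.70 and 10.3 CPM in WT_PBS and 22.9, 12.9, 14.5 and 17.6 CPM in KO_PBS. Every KO_PBS sample lay above every WT_PBS sample. The KO_PBS mean was 196% of the WT_PBS mean, with a log2 fold change (log2FC) of 0.97 (SE 0.21, edgeR adjusted P value 0.00605), and the exact two-sided permutation test gave p = 0.0286. The call was kept without any single sample, with log2FC from 0.79 without KO_PBS replicate 1 to 1.08 without KO_PBS replicate 2. As a share of family counts Myh8 stayed minor, at 0.0155% ± 0.00256 in WT_PBS and 0.0378% ± 0.0121 in KO_PBS (SD, n = 4 each). Its reads are partly uncertain, since 21.4% of the 50-base stretches of its transcript occur identically in another sarcomeric myosin heavy chain, most often in Myh2.

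**Figure D2:**
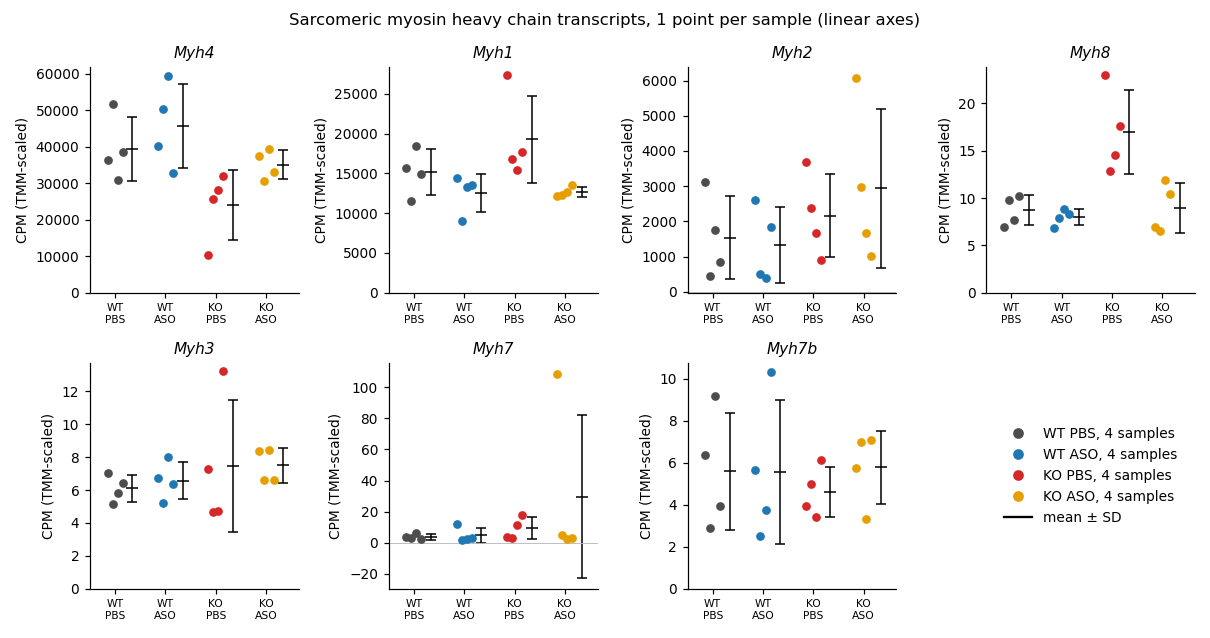
Each panel shows 1 gene, with 1 point per sample, the 4 groups on the horizontal axis and TMM-scaled CPM on a linear vertical axis, and black marks give the mean ± SD of 4 samples. Myh8 is highest in the 4 KO_PBS samples, at 12.9 to 22.9 CPM, and in Myh7 the SD bar of KO_ASO reaches below 0 because 1 sample stands at 109 CPM.

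Myh4, the IIB chain, measured 36470, 51635, 30804 and 38480 CPM in WT_PBS and 10248, 25579, 28144 and 32075 CPM in KO_PBS. The lowest sample by far was KO_PBS replicate 1, and the highest KO_PBS sample lay above the lowest WT_PBS sample. The KO_PBS mean was 61.0% of the WT_PBS mean, at a log2FC of -0.71 (SE 0.27, edgeR adjusted P value 0.101) that missed the threshold, and the exact permutation test gave p = 0.0571. Without KO_PBS replicate 1 the log2FC was -0.46 (edgeR adjusted P value 0.194), and DESeq2 on all samples called the gene (adjusted P = 0.0487).

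Myh1, the IIX chain, measured 15658, 11542, 18478 and 14973 CPM in WT_PBS and 27388, 16818, 15410 and 17633 CPM in KO_PBS. KO_PBS replicate 1, the sample lowest in Myh4, was the highest in Myh1, and the groups overlapped. Its log2FC was 0.35 (SE 0.18, edgeR adjusted P value 0.237). Myh2, the IIA chain, spanned 442 to 3126 CPM in WT_PBS and 904 to 3679 CPM in KO_PBS, at a log2FC of 0.48 (SE 0.74, edgeR adjusted P value 0.727). The span within WT_PBS alone was wider than the difference between the groups.

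The embryonic chain Myh3 did not follow the perinatal one. It measured 7.05, 5.14, 5.81 and 6.42 CPM in WT_PBS and 7.28, 4.65, 4.75 and 13.2 CPM in KO_PBS, at a log2FC of 0.29 (SE 0.26, edgeR adjusted P value 0.518). KO_PBS replicate 4 alone stood above the WT_PBS samples by more than their range, and without it the log2FC was -0.13. Myh7, the slow chain, measured 3.74, 2.79, 5.94 and 2.13 CPM in WT_PBS and 3.97, 3.03, 11.7 and 18.0 CPM in KO_PBS, at a log2FC of 1.33 (SE 1.14, edgeR adjusted P value 0.498). Myh7b measured 2.91 to 9.16 CPM in WT_PBS and 3.39 to 6.11 CPM in KO_PBS, at a log2FC of -0.29 (SE 0.41, edgeR adjusted P value 0.707).

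The second comparison asked what the oligonucleotide did to the family in Bin1mck-/- muscle. Between KO_ASO and KO_PBS, Myh8 was again the only member called, and it was lower. Of all genes tested, 3.64% were called, 0.802% (120 genes) higher and 2.83% (424) lower, or 63 higher and 697 lower with library totals only. The 2 comparisons share the KO_PBS samples, so their opposite signs are not independent of each other. Levels of KO_ASO and KO_PBS did not overlap for 2 of 7 members, Myh1 and Myh8, beside 10.4% of all genes.

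Myh8 measured 6.95, 6.49, 11.9 and 10.5 CPM in KO_ASO, below the lowest KO_PBS sample at 12.9 CPM and across the range of WT_PBS. The KO_ASO mean was 52.7% of the KO_PBS mean, at a log2FC of -0.93 (SE 0.21, edgeR adjusted P value 0.0214), and the exact permutation test gave p = 0.0286. The call was lost when single samples were left out, at a log2FC of -0.76 without KO_PBS replicate 1 (adjusted P = 0.0775), -0.82 without KO_ASO replicate 1 (adjusted P = 0.0824) and -0.81 without KO_ASO replicate 2 (adjusted P = 0.0606). It was also lost in an edgeR fit to these 8 samples alone (adjusted P = 0.0796).

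Myh1 measured 12123, 12250, 12669 and 13544 CPM in KO_ASO. These 4 samples spanned little and lay below all KO_PBS samples. The KO_ASO mean was 65.5% of the KO_PBS mean, at a log2FC of -0.61 (SE 0.19, edgeR adjusted P value 0.0782) that missed the threshold, while the exact permutation test gave p = 0.0286. DESeq2 (adjusted P = 0.0208) and edgeR with library totals only (adjusted P = 0.0481) called it, and without KO_PBS replicate 1 its log2FC was -0.40 (edgeR adjusted P value 0.288).

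Myh4 measured 37427, 30710, 39274 and 33145 CPM in KO_ASO. The lowest of these was under the highest KO_PBS sample, so the groups overlapped. Its log2FC was 0.55 (SE 0.27, edgeR adjusted P value 0.313), the exact permutation test gave p = 0.0571, and without KO_PBS replicate 1 the log2FC was 0.29.

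Myh2 measured 6079, 2988, 1660 and 1027 CPM in KO_ASO, at a log2FC of 0.44 (SE 0.74, edgeR adjusted P value 0.833) that became -0.19 without KO_ASO replicate 1. Myh3 (log2FC 0.00, SE 0.26) ranged from 6.58 to 8.44 CPM in KO_ASO, and Myh7b (log2FC 0.33, SE 0.41) from 3.32 to 7.07 CPM, neither past the threshold.

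Myh7 set 1 sample apart. It measured 108.9, 4.99, 2.18 and 2.93 CPM in KO_ASO, where the high sample was replicate 1 with 4009 counts. The log2FC against KO_PBS was 1.70 (SE 1.10, edgeR adjusted P value 0.472), and it was -1.45 without that sample. KO_ASO replicate 1 was also the highest of all 16 samples for Myh2, the IIA chain, at 6079 CPM, for the slow regulatory light chain Myl2 at 65.1 CPM, for the slow troponin C gene Tnnc1 at 27.4 CPM and for the slow essential light chain Myl3 at 306.7 CPM. Of the 10 slow fibre genes listed, 5 were highest in this sample (these 3, Atp2a2 and Tpm3) and the other 5 (Casq2, Mybpc1, Myoz2, Tnni1 and Tnnt1) were highest in KO_PBS replicate 1.

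**Figure D3:**
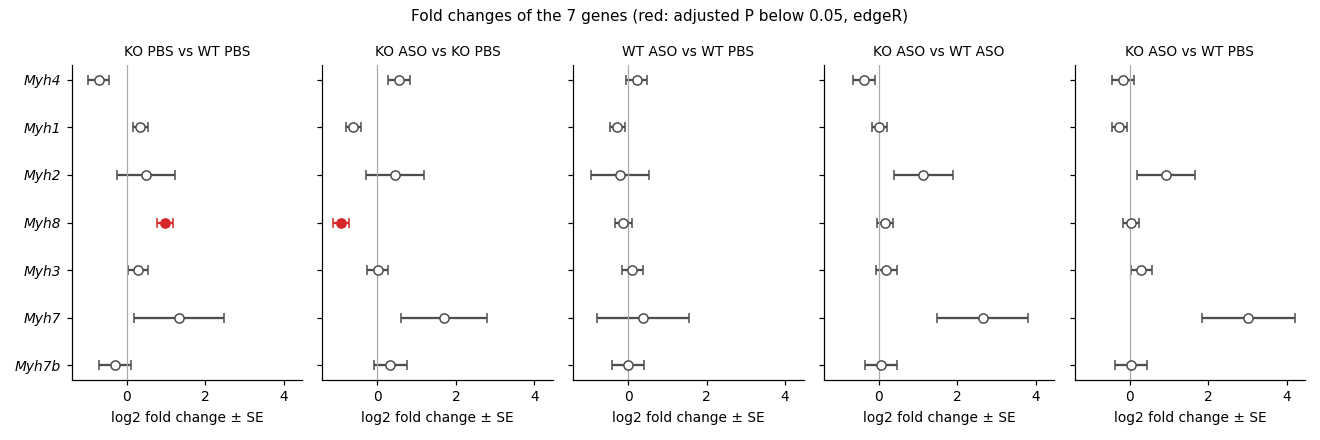
Points give the log2 fold change of each of the 7 genes and bars its SE from edgeR in 5 comparisons, with red filled points for adjusted P values below 0.05. Myh8 is the only filled point, at 0.97 in KO_PBS vs WT_PBS and at -0.93 in KO_ASO vs KO_PBS, and the widest bars are those of Myh7 and Myh2.

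In wild-type mice the oligonucleotide left no member past the threshold. Between WT_ASO and WT_PBS, 0 of 7 members were called by edgeR, DESeq2 or limma-voom, 0 had an unadjusted p under 0.05 in edgeR, and groups of 0 members were without overlap. Of all genes 0.00668% were called, 6.45% had an unadjusted p under 0.05 and 3.22% were without overlap. Log2FC ran from -0.27 for Myh1 (SE 0.18) to 0.38 for Myh7 (SE 1.16). Myh8 measured 6.87, 7.93, 8.83 and 8.28 CPM in WT_ASO, within the range of WT_PBS apart from 1 sample just below it, at a log2FC of -0.12 (SE 0.21, edgeR adjusted P value 0.969). Myh4 measured 40114, 50385, 59266 and 32866 CPM in WT_ASO, at a log2FC of 0.21 (SE 0.27, edgeR adjusted P value 0.944).

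Whether the oligonucleotide acted differently in the genotypes was tested by the interaction term. For Myh8 it was -0.81 on the log2 scale (SE 0.29, unadjusted p = 0.0139, edgeR adjusted P value 0.246), so a difference of the effect was not called. Of the 7 members, 0 were called by edgeR, DESeq2 or limma-voom and 1, Myh8, had an unadjusted p under 0.05. Of all genes 0.575% were called and 12.7% had an unadjusted p under 0.05, so that 1 of 7 is near the background. The remaining interaction terms ran from -0.34 for Myh1 (SE 0.26) to 1.32 for Myh7 (SE 1.59).

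Treated knockout mice were also set against both wild-type groups. Between KO_ASO and WT_PBS, 0 of 7 members were called by edgeR, DESeq2 or limma-voom and 1, Myh7, had an unadjusted p under 0.05 in edgeR. Of all genes 0.0401% were called and 8.22% had an unadjusted p under 0.05. Myh8 had a log2FC of 0.04 (SE 0.21), Myh4 -0.16 (SE 0.27) and Myh1 -0.26 (SE 0.18). Between KO_ASO and WT_ASO, 0 of 7 were called by the same tools and 1, Myh7, had an unadjusted p under 0.05, where of all genes 0.0735% were called and 15.1% had an unadjusted p under 0.05. The Myh7 values, 3.03 (SE 1.18) against WT_PBS and 2.65 (SE 1.16) against WT_ASO, rested on KO_ASO replicate 1 and were -0.12 and -0.50 without it.

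Members overlap other genes, which bears on their counts. Myhas, a long antisense RNA (ENSMUSG00000085348, chromosome 11, 67211256 to 67237573, minus strand), shares 515 exonic bases with Myh1 on the other strand, and its 5′ end lies 239 bases before the RefSeq start of Myh4, so that both are transcribed away from the same interval. The GENCODE model of Myh4 begins 217 bases after that start. Myhas measured 69.6, 73.9, 48.2 and 60.2 CPM in WT_PBS and 19.1, 40.2, 47.8 and 43.3 CPM in KO_PBS. The KO_PBS samples were all below the WT_PBS samples, at a log2FC of -0.74 (SE 0.24, edgeR adjusted P value 0.0513) just short of a call. In KO_ASO it measured 55.2, 56.1, 72.4 and 43.5 CPM, with a log2FC against KO_PBS of 0.60 (SE 0.24, edgeR adjusted P value 0.188).

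Across the 16 samples the level of Myh4 ran with that of Myhas, and both ran against that of Myh1. These 3 relations were picked after the values had been seen, out of 36 pairs among the members and their antisense neighbours, so they are given as a description and without a test. Pearson's r of log2 CPM between Myh4 and Myhas was 0.92 and Spearman's rho 0.85 (n = 16). Without the 2 samples farthest from the median of Myh4, KO_PBS replicate 1 and WT_ASO replicate 3, r was 0.83, and for deviations from the group means it was 0.84. Between Myh4 and Myh1, r was -0.83 and rho -0.67 (n = 16). Without the same 2 samples r was -0.71, and for deviations from the group means it was -0.77. Between Myh1 and Myhas, whose exons overlap, r was -0.87 and rho -0.72 (n = 16). Without the 2 samples farthest from the median of Myh1, KO_PBS replicate 1 and WT_ASO replicate 2, r was -0.59, and for deviations from the group means it was -0.87. All these values share their libraries and the scaling of each sample.

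**Figure D4:**
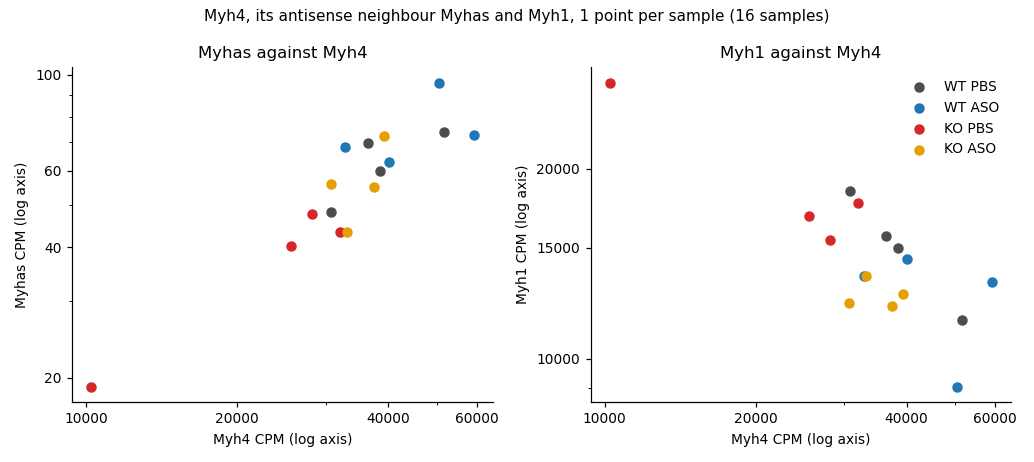
Each of the 16 samples is a point coloured by group, with the CPM of Myh4 on the horizontal axis and the CPM of Myhas (left) or Myh1 (right) on the vertical axis, both axes logarithmic. KO_PBS replicate 1 lies at the far left, with 10248 CPM of Myh4, 19.1 CPM of Myhas and 27388 CPM of Myh1.

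The second antisense neighbour, 9430073C21Rik (ENSMUSG00000085479, chromosome 11, 67195680 to 67199234, minus strand), shares 237 exonic bases with Myh2. It measured 3.80, 3.82, 2.71 and 4.51 CPM in KO_PBS and 1.09, 1.63, 1.49 and 2.30 CPM in KO_ASO, and all KO_ASO samples lay below the KO_PBS samples. It fell by 1.20 on the log2 scale between KO_ASO and KO_PBS (SE 0.26, edgeR adjusted P value 0.0167), whereas Myh2 itself was not called. Between KO_PBS and WT_PBS its log2FC was 0.75 (SE 0.25, edgeR adjusted P value 0.057). Myh7b shares 37 exonic bases with Trpc4ap on the other strand, and the antisense genes Mhrt and Gm31251 over Myh7 held at most 1 count in a sample.

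The slow, fast and developmental genes of the sarcomere were read beside the members in KO_PBS vs WT_PBS. Of all genes tested, 7.43% were called higher and 5.12% lower in this comparison. Of 10 slow fibre genes, 2 were called higher and 0 lower, with a median log2FC of 1.003 where the median of all genes was -0.01. These were Tnni1, the slow inhibitory troponin (log2FC 3.10, SE 0.59), and Atp2a2, the slow calcium pump of the reticulum (log2FC 0.76, SE 0.17). Tnni1 measured 3.60, 1.30, 3.76 and 3.18 CPM in WT_PBS and 45.3, 20.9, 12.2 and 24.6 CPM in KO_PBS. Thus Tnni1 was above the WT_PBS range in all 4 KO_PBS samples and the slow chain Myh7 in 2 of them. The slow troponin T gene Tnnt1 had a log2FC of 2.02 (SE 0.65, edgeR adjusted P value 0.0564), with KO_PBS replicate 3 at 8.95 CPM inside the WT_PBS range, which reached 9.74 CPM. The slow light chain Myl3 had a log2FC of -0.45 (SE 0.52) and its groups overlapped.

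Of 11 fast fibre genes, 6 were called lower and 0 higher, with a median log2FC of -0.41, where 5.12% of all genes were called lower. With library totals only, which moved the median of all genes to 0.139, 0 of the 11 were called by edgeR, 8 had an unadjusted p under 0.05 and the median was -0.25. The 6 called under TMM were Tnnt3 (log2FC -0.40, SE 0.10) and Tnni2 (-0.37, SE 0.10), both fast troponin subunits, with Tnnc2, Atp2a1, Myoz1 and Pvalb. Myh4, the chain of the fastest fibres, had a log2FC of -0.71 with an SE of 0.27. Of 4 developmental sarcomere genes, 2 were called higher, beside 7.43% of all genes, with a median log2FC of 1.12. They were the embryonic light chain Myl4 (log2FC 1.44, SE 0.26) and the cardiac and fetal troponin Tnnt2 (log2FC 1.71, SE 0.35). Myl4 measured 4.59 to 6.96 CPM in WT_PBS and 12.4 to 17.0 CPM in KO_PBS.

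**Figure D5:**
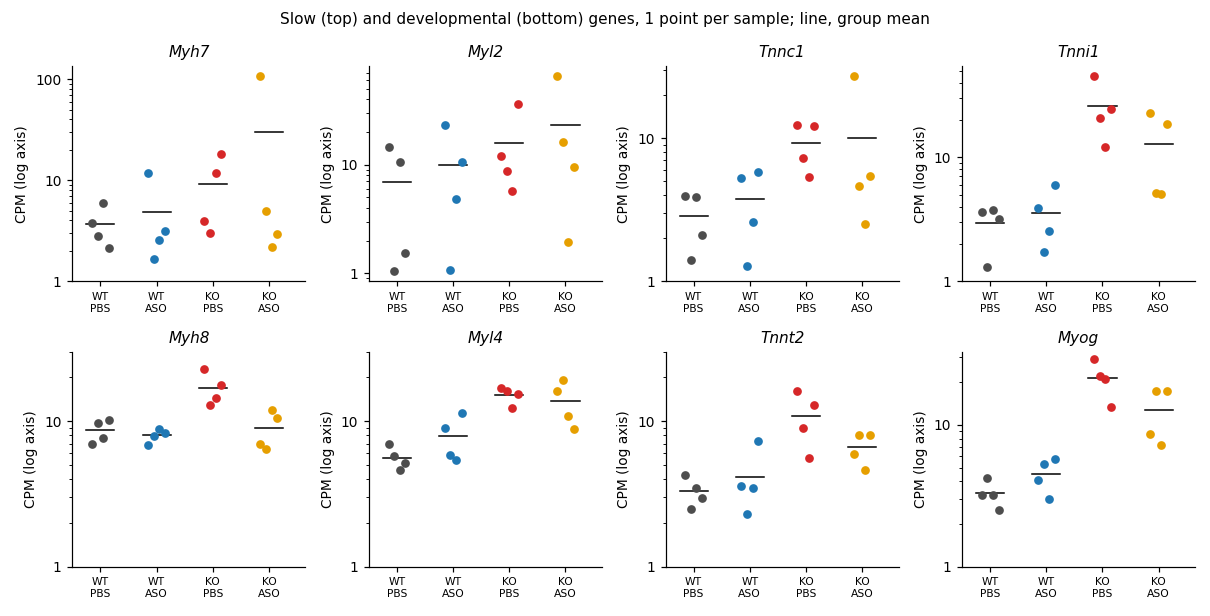
Points give the CPM of each sample on logarithmic axes, by group, for the slow genes Myh7, Myl2, Tnnc1 and Tnni1 (top) and for Myh8, Myl4, Tnnt2 and Myog (bottom), and lines give group means. KO_ASO replicate 1 stands highest for Myh7 at 109 CPM and for Myl2 at 65.1 CPM, and Myh8 stands at 12.9 to 22.9 CPM in KO_PBS.

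The same lists held 0 called genes between KO_ASO and KO_PBS by edgeR and by limma-voom. At an unadjusted p under 0.05 in edgeR there were 0 slow, 3 of 11 fast and 0 developmental genes, where 17.7% of all genes were under it, and DESeq2 called 1 fast gene and 0 of the others. The slow list had a median log2FC of -0.15, with Tnni1 at -0.99 (SE 0.54) and Myl3 at 1.10 (SE 0.52) having the smallest p-values. The fast list had a median of 0.25, with 11 of 11 log2FC above 0 and Pvalb at 0.56 (SE 0.21) and Tnnt3 at 0.27 (SE 0.10). In wild-type muscle, WT_ASO vs WT_PBS, the fast list likewise had 11 of 11 log2FC above 0, with a median of 0.22 and 0 genes called by edgeR. The interaction, the difference between these ASO effects in the 2 genotypes, had a median of 0.05 over the fast list with 7 of 11 above 0 and 0 called by edgeR. Between KO_ASO and WT_ASO the fast list had 0 of 11 log2FC above 0, with a median of -0.37. EdgeR called 0 of the 11, and DESeq2 called 5 lower, where it called 422 of all 14960 genes. At an unadjusted p under 0.05 in edgeR there were 7, beside 15.1% of all genes. The slow list had 10 of 10 above 0 there, with a median of 1.04, 0 called by edgeR and 2 by DESeq2. Between KO_ASO and KO_PBS the developmental list had a median of -0.35, with Tnnt2 at -0.70 (SE 0.34) and Myl6b at -0.56 (SE 0.29). The median of all genes was 0.01.

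Other myosin heavy chains were measured too. Of Myh6, Myh13 and Myh15, 2 passed the filter and 0 were called by edgeR, DESeq2 or limma-voom in either comparison, with 0 at an unadjusted p under 0.05 in edgeR. Their log2FC in KO_PBS vs WT_PBS was -0.51 for the cardiac alpha chain Myh6 (SE 0.38) and -0.61 for the extraocular chain Myh13 (SE 0.42), and in KO_ASO vs KO_PBS it was 0.20 (SE 0.38) and 0.28 (SE 0.42). Of 4 non-sarcomeric chains, the non-muscle chain Myh14 was called higher in KO_PBS than in WT_PBS (log2FC 0.57, SE 0.15) and the smooth muscle chain Myh11 lower (-0.45, SE 0.12). In that comparison 12.6% of all genes were called. Of the 4, 0 were called between KO_ASO and KO_PBS by edgeR, DESeq2 or limma-voom and 0 had an unadjusted p under 0.05 in edgeR, with log2FC of -0.27 (SE 0.15) and 0.17 (SE 0.12).

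Genes that act on the members were listed as regulators and chaperones. Of 18 fibre type regulators, 1 was called higher and 2 lower in KO_PBS vs WT_PBS, with a median log2FC of 0.06, and 3 of 18 is close to the 12.6% of all genes called. Sox6, a repressor of slow fibre genes, had a log2FC of -0.66 (SE 0.18), Tbx15, a factor of glycolytic fibres, -0.40 (SE 0.11), and Rcan1, a calcineurin inhibitor and target, 0.87 (SE 0.24). Between KO_ASO and KO_PBS 0 were called by edgeR and limma-voom, 2 by DESeq2, and 4 had an unadjusted p under 0.05 in edgeR, with Tbx15 at 0.35 (SE 0.11, edgeR adjusted P value 0.0845) and Rcan1 at -0.81 (SE 0.24, edgeR adjusted P value 0.0753). Of 6 myogenic factors tested, Myog, which drives differentiation of muscle precursors, was higher in KO_PBS (log2FC 2.70, SE 0.32), while Pax7 (-1.39, SE 0.22) and Myf5 (-1.30, SE 0.37), factors of satellite cells, were lower. Between KO_ASO and KO_PBS 0 myogenic factors were called by edgeR and limma-voom, 1 by DESeq2, and 3 had an unadjusted p under 0.05 in edgeR, with Myod1 at 1.15 (SE 0.33), Pax7 at 0.57 (SE 0.22) and Myog at -0.76 (SE 0.29). Of 9 chaperone and thick filament genes, 2 were called higher in KO_PBS, beside 7.43% of all genes, although the median of the list was -0.16. They were the heat shock protein gene Hsp90aa1 (log2FC 0.68, SE 0.19) and the M-band gene Myom3 (2.56, SE 0.76). In KO_ASO vs KO_PBS 0 of the 9 were called by edgeR, DESeq2 or limma-voom and 0 had an unadjusted p under 0.05 in edgeR. Myom3 was at -1.34 (SE 0.73) and Unc45b at 0.11 (SE 0.11).

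Markers of other cells moved with the same contrast, in which 7.43% of all genes were called higher and 5.12% lower. In KO_PBS vs WT_PBS 7 of 8 macrophage markers were called higher, the largest being Cd68 (log2FC 3.41, SE 0.31) beside Cd163 (1.51, SE 0.29). The summed level of the list ran from 20.5 to 33.3 CPM in WT_PBS, 22.7 to 51.6 in WT_ASO, 66.4 to 152.9 in KO_PBS and 23.1 to 41.7 in KO_ASO. Of 6 fibroblast and matrix markers 2 were called higher, Dcn (0.58, SE 0.17) and Pdgfra (0.95, SE 0.26), and their sum ran from 1034 to 1366 CPM in WT_PBS and 1299 to 2288 CPM in KO_PBS. Of 5 spindle and satellite cell markers 2 were called lower, Calcr (-2.43, SE 0.55) and Pax7, and 2 had a log2FC above 0. These last were Etv1 (0.11, SE 0.27) and Egr3, which averaged 0.830 CPM in WT_PBS and 1.54 CPM in KO_PBS, while Etv4 had -0.49 (SE 0.21). The sum of the list ran from 10.7 to 14.8 CPM in WT_PBS and 8.06 to 10.5 CPM in KO_PBS. Of 5 muscle identity markers, Des was called higher (0.75, SE 0.10), and Ckm had a log2FC of -0.39 (SE 0.14).

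In KO_ASO vs KO_PBS 5 of 8 macrophage markers were called lower, where 2.83% of all genes were called lower. Among the 5 were Cd68 (log2FC -2.63, SE 0.29) and Cd163 (-1.58, SE 0.30). Dcn (-0.68, SE 0.17) was called lower among the fibroblast markers, where Pdgfra had -0.90 (SE 0.26), and Des (-0.60, SE 0.10) among the identity markers, where Ckm had 0.22 (SE 0.14). Of the spindle and satellite cell markers 0 were called by edgeR, DESeq2 or limma-voom and 3 had an unadjusted p under 0.05 in edgeR, with Egr3 at -1.17 (SE 0.47), Calcr at 1.37 (SE 0.59) and Pax7 at 0.57. The part of these cell markers in the Myh8 result was not tested. In WT_ASO vs WT_PBS 0 genes of any of these lists were called by edgeR, DESeq2 or limma-voom, and 0 to 2 genes of a list had an unadjusted p under 0.05 in edgeR.

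The genes whose level followed each member most closely over the 16 samples were ranked by Pearson's r of log2 CPM, as a description. All points share the same libraries, and the ranking was taken over all tested genes. Myh4 was followed by Mybpc2, the fast myosin binding protein C (r = 0.96), Kcnc4 and Gpt2. Myh2 was followed by Bdh1, an enzyme of ketone metabolism (r = 0.96), Klhl34 and Mb, the oxygen-binding myoglobin (r = 0.94). Among the genes that followed Myh1 were Cyfip2 (r = 0.90) and Arpin (r = 0.89).

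Myh8 was followed by Slc4a3 (r = 0.93), Col5a2, a fibrillar collagen chain (r = 0.92), and Maged2 (r = 0.92). Myh7b was followed by Myl10 (r = 0.92), Myh6 (r = 0.87) and Myh13 (r = 0.87), the latter both myosin heavy chains as well. Myh7 was followed by Tnnc1, the slow and cardiac troponin C (r = 0.78), Exoc1 and Myl2, the slow light chain (r = 0.77). Myh3 was followed by Tnfrsf26 (r = 0.82), B3galnt1 and Prg4, the lubricin gene. Between members, the closest pair beside Myh4 and Myh1 was Myh1 and Myh8 (r = 0.64), and Myh3 and Myh8, both developmental chains, had r = 0.19.

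The counting could divide reads between members. Of the 50-base stretches of the longest coding transcript, 26.7% in Myh1, 26.9% in Myh2, 18.9% in Myh4 and 4.81% in Myh3 occurred identically in another sarcomeric chain. For Myh7 the share was 22.2%, all with the cardiac gene Myh6, and for Myh7b it was 0%. How the counting treated reads that match more than 1 gene, and whether it used the strand, are not stated in the sources used, so small differences between these genes are uncertain.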

How the data were processed

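Per the labels, TA RNA of the 16 samples was taken up in TRI Reagent and sequenced after TruSeq Stranded mRNA library preparation. The values deposited by the authors were counts of reads for each Ensembl gene, without normalization, in 1 matrix. Tools named in the processing notes of the submitters, without their roles, were STAR 2.5.3a, HTSeq 0.6.1p1, Bowtie2 2.2.8 and cutadapt 1.10, with build GRCm38 (mm10). The Ensembl release is not given in the sources used here. Symbols were taken from GENCODE (GRCm38), which held all 29730 identifiers, and 0 genes had a count of 0 throughout. Promoter windows came from RefSeq (GRCm38.p6) and were found for all 7 members.

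Counts were tested with edgeR 4.0.16 in R 4.3.3, by a robust quasi-likelihood fit with 1 mean per group over all 16 samples. The filterByExpr function left 14960 genes and took out 14770, and TMM factors ran from 0.891 to 1.09. The Benjamini-Hochberg adjustment was made over all genes, and calls were made at an adjusted P value under 0.05. The common biological coefficient of variation was 18.7%. The scripts were tested on simulated data. DESeq2 1.42.0, limma 3.58.1 (voom), other scalings, filters and left-out samples were alternatives. Group labels of single values were permuted exactly. Lowest within-group mean chi-square per gene was 21.7, so no library appeared to be a copy of another. Each sample was taken to be a separate mouse, since otherwise p-values measure technical spread only.

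The members and gene lists were chosen with earlier results of these data known. Named genes were all 7 members, their antisense neighbours, the genes targeted, the 2 genes of each list with the smallest p in KO_PBS vs WT_PBS and KO_ASO vs KO_PBS, and the 3 genes most correlated with each member, of which 1 is not reported here. Further called genes of a list, and those high in KO_ASO replicate 1, were named after their values were seen, and the other tools and scalings were added for the lists at the same stage. The lists were slow, fast and developmental sarcomere genes, other sarcomeric and non-sarcomeric myosin heavy chains, fibre type regulators, myogenic factors, chaperones, and macrophage, fibroblast, spindle and satellite cell, and muscle identity markers.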

Additional observations from a re-analysis of the deposited data

Results flagged for a closer look

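A pair of values of Myh7, the slow chain, stood apart from their group by Dixon's ratio of the gap to the range, tested in 28 groups of 4 samples, where chance sets apart about 1 group in 20. In WT_ASO, replicate 1 measured 11.8 CPM and the others 1.68 to 3.11 CPM, a ratio of 0.859. In KO_ASO, replicate 1 measured 108.9 CPM and the others 2.18 to 4.99 CPM, a ratio of 0.974. In the same samples the slow light chain Myl2 measured 23.1 and 65.1 CPM, the highest of each group. Slow troponin I, Tnni1, measured 3.89 CPM in the first, where WT_ASO replicate 4 was higher at 6.00 CPM, and 22.8 CPM in the second, the highest of KO_ASO.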

How the results depend on the processing

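Of the alternatives tried on the members, the other size factors, scaling without the members, limma-voom and the unfiltered table kept every count of called members. Between KO_PBS and WT_PBS, DESeq2 called 2 members, Myh4 and Myh8, against 1 in edgeR, and leaving out each sample gave 1 throughout. Between KO_ASO and KO_PBS, DESeq2 and library totals only called 2, Myh1 and Myh8, the fit to the groups compared only called 0, and leaving out each sample gave 0 to 1. Replicate numbers are shared by the groups in the labels, but samples with the same number correlated by -0.0777 to 0.435 in their deviations from the group means (median 0.0751, 24 pairs) and those with other numbers by -0.382 to 0.195 (median -0.0268, 72 pairs), so the numbers were not taken to pair the samples. Myh2 was nevertheless highest in replicate 1 of all 4 groups, at 3126 CPM in WT_PBS, 2621 in WT_ASO, 3679 in KO_PBS and 6079 in KO_ASO. What the number stands for was not tested. With the replicate number as a block, 1 member was called in KO_PBS vs WT_PBS and 1 in KO_ASO vs KO_PBS. A permutation of shares within numbers gave 0 of 35 past the threshold, since 4 pairs cannot go below 0.125. Of the 6 shares past the threshold, the 2 of Myh1 and Myh4 could be tested with the 3 fast chains as the total, and both stayed (2 of 15 tests). Leaving out each sample left 1 to 5, since 3 samples against 4 cannot go below 0.0571.

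The log2FC that turned sign were all short of the threshold. They were Myh3 in KO_ASO vs KO_PBS, at -0.0984 with library totals only and -0.00417 unfiltered, Myh7 in WT_ASO vs WT_PBS at -0.145 with the replicate block, and with limma-voom Myh8 in KO_ASO vs WT_PBS at -0.00135 and the interaction of Myh3 at 0.0431. Without single samples, ranges crossed 0 in KO_PBS vs WT_PBS for Myh3 (-0.131 to 0.457) and Myh7b (-0.495 to 0.0609). In KO_ASO vs KO_PBS they crossed 0 for Myh2 (-0.19 to 0.822), Myh3 (-0.165 to 0.423) and Myh7 (-1.45 to 2.24). In WT_ASO vs WT_PBS they did so for Myh2 (-0.752 to 0.403), Myh3 (-0.00473 to 0.197), Myh7 (-0.576 to 0.726) and Myh7b (-0.504 to 0.336). In KO_ASO vs WT_ASO they did so for Myh1 (-0.117 to 0.084), Myh7 (-0.502 to 3.60) and Myh7b (-0.187 to 0.549), and in KO_ASO vs WT_PBS for Myh7 (-0.119 to 3.41), Myh7b (-0.162 to 0.393) and Myh8 (-0.131 to 0.158). The interaction crossed 0 for Myh3 (-0.257 to 0.331), Myh7 (-1.83 to 2.28) and Myh7b (-0.00337 to 0.836).

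Over all genes, DESeq2 called 1056 against 544 in KO_ASO vs KO_PBS, 33 against 1 in WT_ASO vs WT_PBS, 422 against 11 in KO_ASO vs WT_ASO, 95 against 6 in KO_ASO vs WT_PBS and 385 against 86 for the interaction, and the cause was not tested. In KO_ASO vs KO_PBS the fit to the groups compared only called 300 genes. Leaving out each sample gave 208 (without KO_PBS replicate 1) to 831 genes (without KO_ASO replicate 4) in KO_ASO vs KO_PBS, 997 (without KO_PBS replicate 1) to 1694 against 1878 in KO_PBS vs WT_PBS, where leaving out WT_PBS replicate 4 gave 1080, and 23 to 102 for the interaction. It gave 2 to 19 in KO_ASO vs WT_ASO, 4 to 11 in KO_ASO vs WT_PBS and 1 to 4 in WT_ASO vs WT_PBS. With the replicate block, 44 were called in KO_ASO vs WT_ASO. With library totals only, 14 genes were higher and 2 lower in KO_ASO vs WT_ASO, against 6 and 5, and the median log2FC of all genes was 0.139 in KO_PBS vs WT_PBS, where TMM gave -0.0108.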
